A study of Mus musculus with 8 samples.

Results

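Pola1, Prim1, Pole2, Pold3, Fen1 and Rpa2 are genes of DNA polymerases, primase and Okazaki fragment processing, described here in 2 sorted fractions of mouse myeloid cells. They were taken by symbol from the authors' deposited table of changed probesets, and make up 6 of its 482 named genes. The table holds 498 probesets out of 23332 on the array. Its probesets were chosen by their difference between the same 2 fractions, on a p-value and a minimum of 2-fold, so every difference between the fractions below describes how the genes were selected and is given without a test.

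Cells were sorted from the spleens of 12-month-old mice with esophageal tumors. All mice carried L2-Cre, a Cre transgene, together with floxed p120 (p120f/f), on a mixed C57BL/6x129 background. The labels do not name the cells in which this Cre is active, and mice without tumors or without the deletion are not part of the comparison. Splenocytes bearing CD11b and Gr1, the surface phenotype of mouse myeloid-derived suppressor cells, were divided into a CD38high and a CD38low fraction. Each fraction gave 4 arrays, from 3 individual mice (mouse 1, 2 and 3) and from 1 pool of 3 mice, and the CD38high and CD38low arrays from 1 source are called a pair. Whether the pooled mice differed from mice 1 to 3 is not stated. Values are log2 expression per probeset as deposited. Array medians lay between 6.92 and 7.10, and the number of arrays limits the precision. The Cd38 transcript averaged 12.45 ± 0.15 in CD38high and 10.46 ± 0.57 in CD38low cells (SD, n = 4 each), which checks the sort labels and is no separate result. Probesets for Itgam, Ly6g, Ly6c1 and Ly6c2, which encode the other sort antigens, have no name in the files and were not analysed here.

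At a replication fork, the polymerase alpha-primase complex lays down short RNA-DNA primers, polymerase epsilon extends the leading strand, and polymerase delta extends the lagging strand as Okazaki fragments. Replication protein A covers the single-stranded template, and the flap endonuclease FEN1 trims the 5′ end of each Okazaki fragment before ligation. Genes of this machinery are largely transcribed around entry into S phase. In the neutrophil lineage they belong mainly to dividing precursors, since mature neutrophils no longer replicate their DNA.

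The promoters of genes that differ together are shown first, because E2F-type and NF-Y-type letters are commonly looked for in S-phase genes. RefSeq windows of GRCm38.p6, from 250 bases before to 50 bases after the annotated start, were present for 6 of 6 genes. Fen1 had 2 windows and the others 1 each. Capitals mark matches on either strand of TTTCGCGC or TTTGGCGC (E2F type), TTCCCGCC (a second E2F-type form, added after the windows had been read), CCAAT (NF-Y type) and TTTGAA (CHR type). Windows with a match to E2F-type or NF-Y-type letters are printed 5′ to 3′ along the gene's strand.
Pola1 promoter window, chrX:93632106-93632405, minus strand: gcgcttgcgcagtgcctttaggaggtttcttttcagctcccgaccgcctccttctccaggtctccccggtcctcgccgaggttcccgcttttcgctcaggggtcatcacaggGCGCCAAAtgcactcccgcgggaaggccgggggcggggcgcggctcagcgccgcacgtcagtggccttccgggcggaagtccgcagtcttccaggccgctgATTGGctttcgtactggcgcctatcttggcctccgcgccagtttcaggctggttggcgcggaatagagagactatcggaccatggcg
Prim1 promoter window, chr10:128014965-128015264, plus strand: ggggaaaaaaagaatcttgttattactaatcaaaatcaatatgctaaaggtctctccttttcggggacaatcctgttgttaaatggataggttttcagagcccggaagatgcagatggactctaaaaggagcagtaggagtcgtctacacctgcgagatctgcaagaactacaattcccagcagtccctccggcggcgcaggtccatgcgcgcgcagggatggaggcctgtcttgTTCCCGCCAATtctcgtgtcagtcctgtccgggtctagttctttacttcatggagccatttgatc
Pole2 promoter window, chr12:69228141-69228440, minus strand: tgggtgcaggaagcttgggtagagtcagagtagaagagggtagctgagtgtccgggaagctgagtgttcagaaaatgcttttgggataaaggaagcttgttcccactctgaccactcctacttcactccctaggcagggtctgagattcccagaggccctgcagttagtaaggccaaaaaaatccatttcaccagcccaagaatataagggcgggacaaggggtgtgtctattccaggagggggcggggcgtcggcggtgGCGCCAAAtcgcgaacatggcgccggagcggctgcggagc
Pold3 promoter window, chr7:100121453-100121752, minus strand: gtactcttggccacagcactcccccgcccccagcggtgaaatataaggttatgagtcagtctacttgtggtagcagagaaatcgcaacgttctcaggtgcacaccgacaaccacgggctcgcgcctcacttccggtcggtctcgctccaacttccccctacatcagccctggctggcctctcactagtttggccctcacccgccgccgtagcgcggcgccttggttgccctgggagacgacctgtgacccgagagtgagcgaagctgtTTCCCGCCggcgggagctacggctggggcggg
Rpa2 promoter window, chr4:132768110-132768409, plus strand: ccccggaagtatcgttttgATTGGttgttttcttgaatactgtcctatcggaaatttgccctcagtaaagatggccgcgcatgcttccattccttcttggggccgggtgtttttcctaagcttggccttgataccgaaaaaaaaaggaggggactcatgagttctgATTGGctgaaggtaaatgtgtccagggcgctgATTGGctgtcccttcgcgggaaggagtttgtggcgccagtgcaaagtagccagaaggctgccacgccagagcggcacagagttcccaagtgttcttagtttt

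Pola1 and Pole2 each held TTTGGCGC once, on the opposite strand, beginning at position -138 from the Pola1 start and at base 11 of the Pole2 transcript. Of the 32851 windows counted, called all windows below, 0.813% held at least 1 of these 2 E2F-type forms. The count leaves out the windows of 1 chromosome. Prim1 and Pold3 held TTCCCGCC, found in 2.19% of all windows. That form was added after the windows of the 6 genes had been read, so nothing is read from the share. In Prim1 the form began at position -15 and shared its last 2 letters with a CCAAT, while in Pold3 it began at base 19 of the transcript. CCAAT occurred 3 times in Rpa2 and once each in Pola1 and Prim1, against at least 1 occurrence in 37.4% of all windows. TTTGAA was found in 1 of the 2 Fen1 windows and in 17.9% of all windows, and the other Fen1 window held none of the letters searched. A match describes the letters of a window, and no binding was measured.

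All 6 genes were lower in CD38high cells, by 2.03-fold for Pold3 to 4.04-fold for Pole2. In each of them the 4 CD38high arrays lay below the 4 CD38low arrays, as did 9.37% of all 23332 probesets. In the limma fit across all probesets 6 of 6 were called lower in CD38high at an adjusted p under 0.05, where the background was 6.88% of probesets called lower (9.87% with mouse or pool as a block). Since the list was drawn from this contrast, nothing is read from either count. The median difference over the 6 genes was -1.68 on the log2 scale, against -1.24 over the 374 listed probesets that were lower and 0.04 over all probesets. In sorted bulk cells, fewer cells that express a gene and less of its RNA per cell cannot be told apart.

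**Figure D1:**
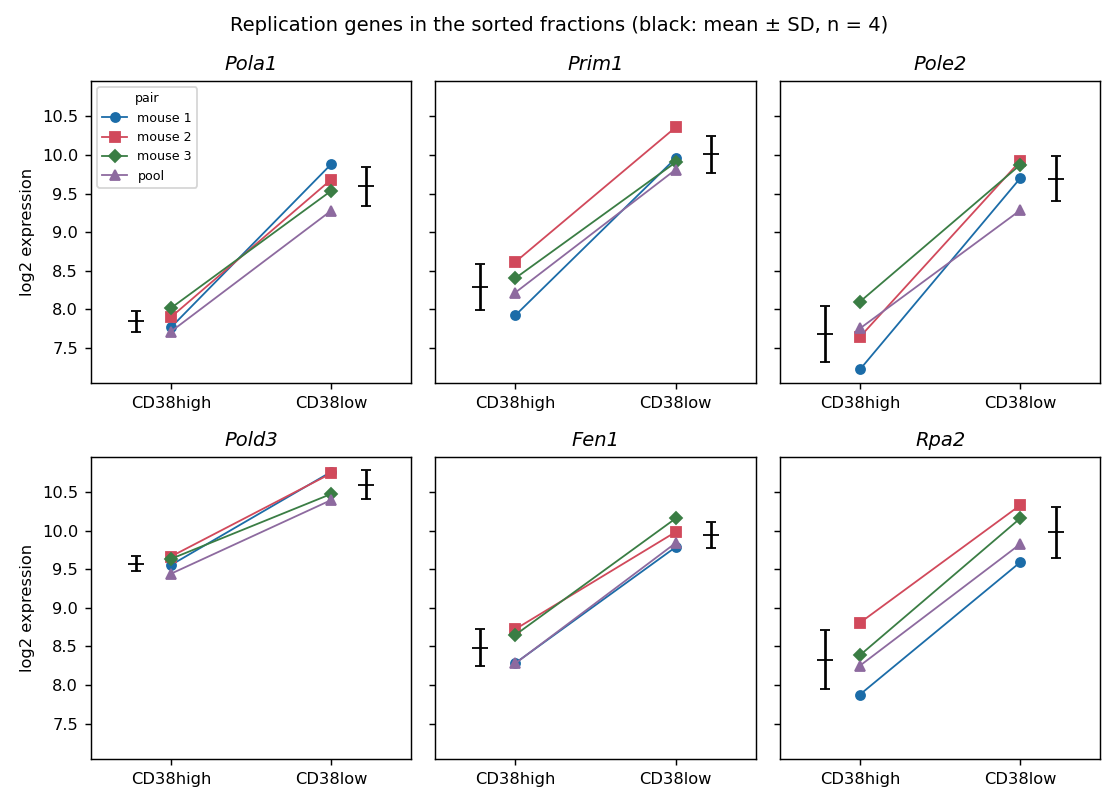
Log2 expression of the 6 genes (vertical axis) in CD38high and CD38low arrays (horizontal axis). Coloured symbols are single arrays, lines join the fractions of 1 mouse or of the pool, and black bars give the mean ± SD of 4 arrays. In every panel the highest CD38high array is below the lowest CD38low array. Heights of different panels come from different probesets and are not comparable.

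Pola1 (chromosome X) encodes the catalytic subunit of polymerase alpha, which extends the RNA primer with DNA. In CD38high cells it stood at 7.77, 7.90 and 8.02 in mice 1, 2 and 3 and at 7.71 in the pool, against 9.88, 9.68, 9.54 and 9.28 in CD38low cells. The means were 7.85 ± 0.14 in CD38high and 9.59 ± 0.25 in CD38low cells (SD, n = 4 each), a log2 difference of -1.75 ± 0.14 (SE) or 3.35-fold lower. The SE, here and for the other genes, comes from the SDs of both fractions and ignores the pairing. The gap of 1.26 between the fractions was the widest of the 6 genes and more than the spread within either one. In CD38low cells the pool was lowest and mouse 1 highest.

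Prim1 (chromosome 10) encodes the catalytic primase subunit, which makes the RNA part of the primer. CD38high arrays read 7.92, 8.61 and 8.40 in mice 1, 2 and 3 and 8.22 in the pool. CD38low arrays read 9.96, 10.36 and 9.91 in mice 1, 2 and 3 and 9.81 in the pool. Mouse 2 was the highest array of both fractions. With means of 8.29 ± 0.29 in CD38high and 10.01 ± 0.24 in CD38low cells (SD, n = 4 each), the difference was -1.72 ± 0.19 (SE), 3.29-fold lower.

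Pole2 (chromosome 12) encodes the second subunit of polymerase epsilon, a non-catalytic part of the leading-strand enzyme. It had 7.22, 7.64 and 8.10 in CD38high cells of mice 1, 2 and 3 and 7.75 in those of the pool. In CD38low cells it had 9.70, 9.92 and 9.87 in mice 1, 2 and 3 and 9.28 in the pool. Mouse 1 was the lowest CD38high array and the pool the lowest CD38low array. Averages of 7.68 ± 0.36 in CD38high and 9.69 ± 0.29 in CD38low cells (SD, n = 4 each) gave -2.02 ± 0.23 (SE), the largest difference of the 6 and the twelfth largest among the 374 listed lower probesets.

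Pold3 (chromosome 7) encodes an accessory subunit of polymerase delta, the lagging-strand enzyme. Its CD38high values were 9.55, 9.66 and 9.63 in mice 1, 2 and 3 and 9.44 in the pool, against CD38low values of 10.76, 10.74, 10.48 and 10.40. Its CD38high arrays had the smallest SD of the 6 genes, at 9.57 ± 0.10 in CD38high and 10.59 ± 0.19 in CD38low cells (SD, n = 4 each). The difference of -1.02 ± 0.11 (SE), 2.03-fold lower, was the smallest of the 6 and ranked 349 of 374. It lay close to the limit of the list, whose lower probeset of smallest difference, Wdr74, was at -1.0001. The nearest unlisted probeset short of 2-fold was at -0.9998. A further 143 unlisted probesets were at least 2-fold lower, so the 2-fold limit alone did not set the list.

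Fen1 (chromosome 19) encodes the flap endonuclease that processes Okazaki fragments. It read 8.29, 8.73 and 8.65 in CD38high cells of mice 1, 2 and 3 and 8.28 in those of the pool, against 9.79, 9.98, 10.16 and 9.84 in CD38low cells. Mouse 1 and the pool were the 2 lowest arrays in both fractions. The means of 8.49 ± 0.24 in CD38high and 9.94 ± 0.17 in CD38low cells (SD, n = 4 each) differed by -1.46 ± 0.14 (SE), 2.75-fold lower.

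Rpa2 (chromosome 4) encodes the middle subunit of replication protein A. CD38high cells gave 7.88, 8.81 and 8.39 in mice 1, 2 and 3 and 8.25 in the pool, and CD38low cells gave 9.59, 10.33, 10.16 and 9.83. The arrays stood in the same order in both fractions, with mouse 2 highest, then mouse 3, the pool and mouse 1. Means were 8.33 ± 0.38 in CD38high and 9.98 ± 0.33 in CD38low cells (SD, n = 4 each), and the difference was -1.65 ± 0.25 (SE), 3.13-fold lower. Its SD within each fraction was the widest of the 6 genes, but the SD of its pair differences, 0.12, was the smallest.

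Ordered by size, the differences ran from Pole2 through Pola1, Prim1, Rpa2 and Fen1 to Pold3. Pola1 and Prim1, which act in the same complex, were separated by -0.03 ± 0.04 over the pairs (SD, n = 4), and Prim1 and Rpa2 by -0.07 ± 0.26, both within the spread. Pole2 and Pola1 were -0.27 ± 0.23 apart, with the larger difference for Pole2 in 3 of 4 pairs. The step between Rpa2 and Fen1 was -0.19 ± 0.12 and that between Fen1 and Pold3 -0.44 ± 0.24, each in the same order in 4 of 4 pairs. The order was set from the means of these same pairs, so their agreement with it is partly fixed. Each size also comes from a different probeset.

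The size of the difference varied between pairs, and the pair with the largest one was not the same for all 6 genes. Pola1 was lower in CD38high cells by a log2 difference of -2.12 in mouse 1, -1.78 in mouse 2, -1.52 in mouse 3 and -1.57 in the pool. Prim1 followed closely with -2.04, -1.74, -1.50 and -1.59, and Pole2 ranged more widely with -2.48, -2.28, -1.77 and -1.53. Pold3 had -1.21, -1.08, -0.84 and -0.96, so that mouse 3 and the pool were short of 2-fold.
In these 4 genes mouse 1 was largest and mouse 2 next, an order found in 21.9% of the 374 listed lower probesets. Mouse 1 alone was largest in 61.2% of those probesets, so that part of the order is common on the list. Fen1 showed -1.50, -1.26, -1.51 and -1.56 in mice 1, 2 and 3 and the pool, and Rpa2 showed -1.71, -1.52, -1.77 and -1.58. In both, mouse 2 was smallest, as in 27.8% of the listed lower probesets, and the SD over pairs was 0.13 and 0.12, against 0.44 for Pole2. With 1 value per mouse these orders have no replicate check, and partner genes of like roles were mixed. The polymerase subunit genes Pola2 and Pold2, and Rpa1 and Exo1 of the Okazaki list, each had their largest difference in mouse 2. Pole, however, was largest in mouse 1 (-1.69) and next in mouse 2 (-1.38), and Dna2 was smallest in mouse 2 (-0.82). Rnaseh2a was largest in mouse 1 and Rpa3 in the pool, and neither had mouse 2 next or smallest. Median scaling of the arrays left both orders as they were, whereas quantile scaling left the first in 4 of 4 genes and the second in 1 of 2.

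**Figure D2:**
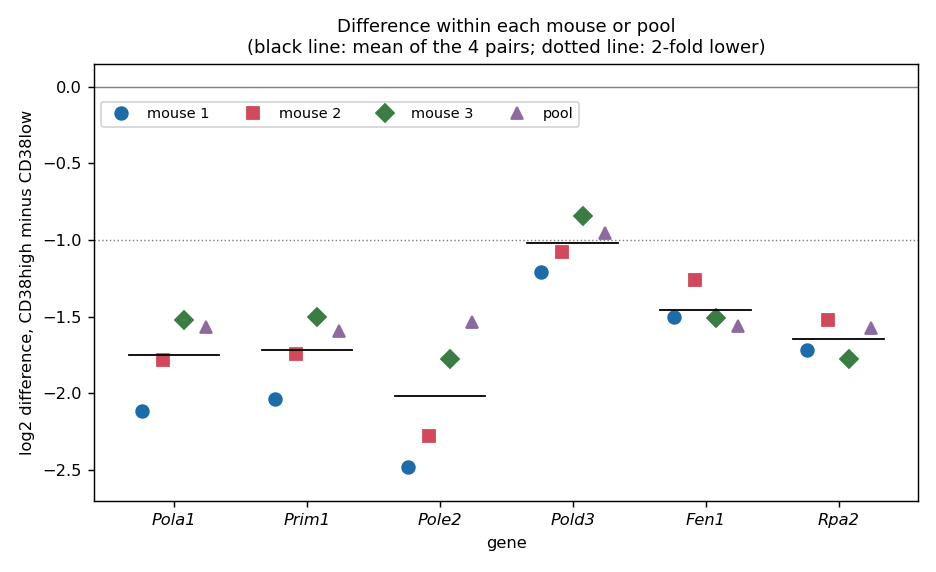
Log2 difference, CD38high minus CD38low (vertical axis), within each mouse or the pool (symbols) for the 6 genes (horizontal axis). Black lines are means over the 4 pairs and the dotted line marks 2-fold lower. Mouse 1 is lowest for Pola1, Prim1, Pole2 and Pold3, at -2.12, -2.04, -2.48 and -1.21, while Fen1 and Rpa2 lie within a narrow band. Mouse 1 also has the largest difference in 61.2% of the listed lower probesets.

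Deviations from the mean of the own fraction do not enter the difference between the fraction means. Their spread does enter the p-value behind the list, and they are part of the pair differences above. In the CD38high array of mouse 1, 6 of 6 genes lay below their CD38high mean, with a median deviation of -0.28 on the log2 scale. This array was below the mean for 54.8% of all probesets and for 86.9% of the listed lower ones. Pold3 was only -0.02 below, and with quantile scaling the count was 5 of 6. In the CD38high array of mouse 3, 6 of 6 lay above it (median 0.14). There 56.4% of all probesets but 22.2% of the listed lower ones were below, and the median of the listed lower probesets was 0.13, so the listed probesets as a whole stood where the 6 genes did. The CD38high pool had 5 of 6 below, with Pole2 as the exception at 0.07, beside 45.4% of all probesets and 61.8% of the listed lower ones.
Among CD38low arrays the pool had 6 of 6 genes below the CD38low mean (median -0.20), beside 53.9% of all probesets and 80.2% of the listed lower ones. CD38low cells of mouse 2 had 6 of 6 above (median 0.19), where 47.5% of all probesets and 40.1% of the listed lower ones were below. With median or quantile scaling 1 of the 6 moved below. Both arrays of mouse 2 had the highest median of their fraction, 7.10 in CD38high and 7.07 in CD38low cells. The part of array scale in these deviations was not tested beyond those scalings. In CD38low arrays of mouse 1 and mouse 3 the genes were split 3 and 3.

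**Figure D3:**
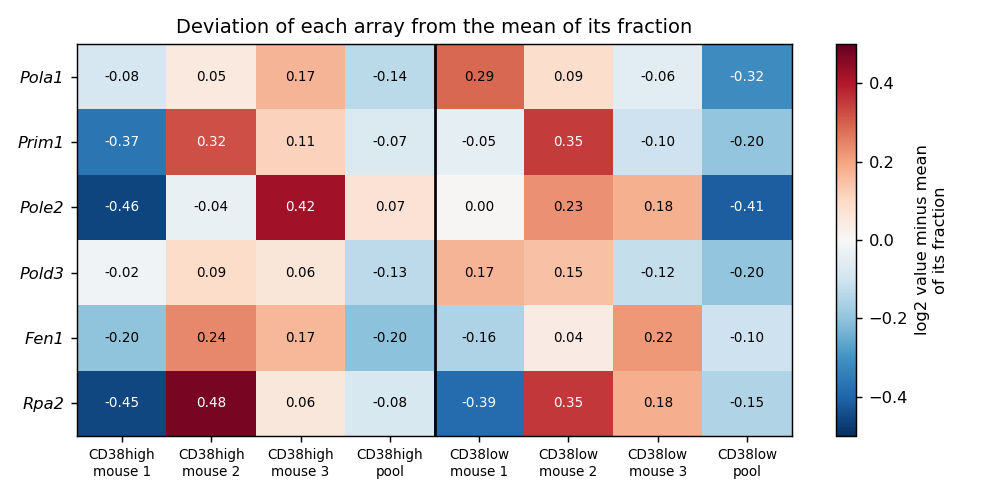
Deviation of each array (columns) from the mean of its own fraction, in log2 units, for the 6 genes (rows), with CD38high arrays left of the line. Blue is below and red above the mean. The CD38high array of mouse 1 and the CD38low pool are below the mean for 6 of 6 genes.

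Partners of the 6 genes in the same complexes and steps were also on the authors' table. The list of replicative polymerase and primase subunits had 7 of 12 genes there, 7 lower and 0 higher in CD38high cells, with a median difference of -1.53. Beside the 4 genes above these were Pola2, the regulatory subunit of polymerase alpha (2.44-fold lower), Pole, the catalytic subunit of polymerase epsilon (2.63-fold lower), and Pold2, a polymerase delta subunit (2.90-fold lower). For polymerase alpha-primase, Pola1 and Prim1 thus showed larger differences than Pola2, which had -1.46, -1.52, -1.19 and -0.99 in mice 1, 2 and 3 and the pool. Pole2 likewise exceeded Pole, at -1.69, -1.38, -1.36 and -1.13, in 4 of 4 pairs. For polymerase delta the order was the other way, with Pold2 at -1.62, -1.83, -1.49 and -1.19 and Pold3 nearer to 0 in each pair. Prim2, Pold1, Pold4, Pole3 and Pole4 have no named probeset and were not analysed here.

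The list for Okazaki fragments and single-stranded DNA also had 7 of 12 genes on the table, 7 lower and 0 higher, with a median of -1.46. Fen1 and Rpa2, which were taken from the table, count among the 7. All subunits of replication protein A were among the 7 as well. Rpa1, the large subunit, was 2.73-fold lower with pair differences between -1.38 and -1.52, an even narrower band than that of Rpa2. Rpa3, the small subunit, was 3.05-fold lower, with -2.04 in mouse 1, -1.21 in mouse 2, -1.07 in mouse 3 and -2.10 in the pool. The nucleases Exo1, Dna2 and Rnaseh2a, which resect DNA, cut long flaps and remove RNA from primers, were 2.93-fold, 2.35-fold and 2.11-fold lower. Fen1 stood between Exo1 and Dna2. Pcna, the sliding clamp, and Lig1, the ligase that joins the fragments, were not named.

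Further along the fork, 11 of 24 clamp loader and fork genes were listed and all 11 were lower (median -1.38), from Timeless, 2.01-fold lower, to Tipin, 3.67-fold lower. The MCM helicase and its loaders had 13 of 17 listed, again all lower (median -1.42). Of the 65 genes on these 4 replication lists 38 were on the table, and 38 of 38 were lower. The 38 include the 6 genes described here, which are on the table by selection. In the first 2 lists together 14 of 24 genes were on it, these 6 and 8 others. Over all features, 2.13% of probesets were on the table, and 75.1% of those on it were lower. These shares count probesets, whereas the lists count genes and were chosen with earlier results of these data known. None of 14 translesion, repair and mitochondrial polymerases and none of 20 mitosis genes could be named. Names exist only for probesets the authors listed as changed, so an unnamed gene is not shown to be unchanged, and these counts carry no test.

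**Figure D4:**
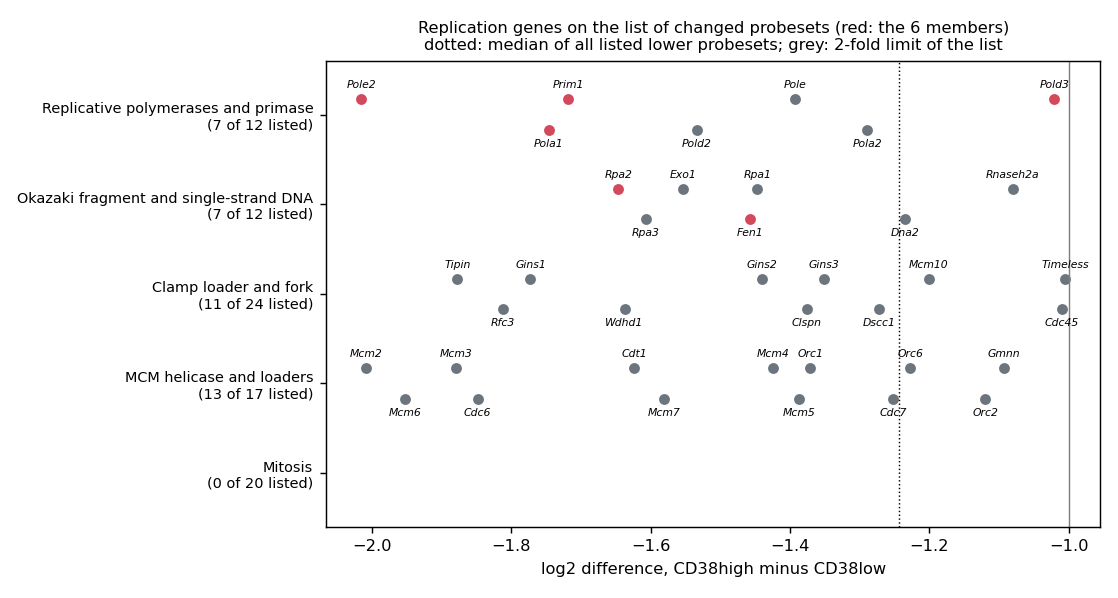
Log2 difference, CD38high minus CD38low (horizontal axis), of each gene that is on the authors' table, by gene list (vertical axis). Red points are the 6 genes described here, the dotted line is the median of all listed lower probesets (-1.24) and the grey line the 2-fold limit of the list. Pole2 is at the far left with -2.02 and Pold3 next to the limit with -1.02; the mitosis list has 0 of 20 genes.

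The named genes most like each of the 6 across the 8 arrays were found by the root mean square difference between log2 values centred on each probeset's own mean. Pole2 was closest to Mcm3 (0.17), Tipin (0.17) and Mcm6 (0.19). Mcm3 and Mcm6 are subunits of the replicative helicase, and Tipin helps to protect the fork. Prim1 was closest to Chek1 (0.12), the checkpoint kinase, Mybl2 (0.13), a transcription factor of cycling cells, and Cdc6 (0.14), a helicase loader. Pola1 was closest to Ppat (0.12), an enzyme of purine synthesis, Wdhd1 (0.12), which couples polymerase alpha to the helicase, and Pa2g4 (0.13).
The genes nearest to Fen1 were Snrpa1 (0.10), a splicing factor, Fbxo5 (0.11), an inhibitor of the anaphase-promoting complex, and Map3k20 (0.13). Rpa2 had Nhp2 (0.15), Mt1 (0.16) and Cdt1 (0.17), so 2 of its 3 nearest genes, for a nucleolar protein and a metallothionein, are outside replication. Pold3 was nearest to Parp4 (0.08), B4galt4 (0.09) and Trmt2a (0.09), which have no core role at the fork. In 5 of the 6 genes no unnamed probeset was closer than the third named one, and for Pold3 4 unnamed probesets were. Values this close largely follow from a like difference between the fractions.

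Markers of other cells and of granulocyte stages differed between the same arrays. Of 6 granulocyte precursor genes 5 were listed (Mpo, Elane, Prtn3, Ctsg and Ms4a3) and 5 of 5 were lower. Their summed linear signal was 9610 to 13279 in CD38high and 42693 to 46720 in CD38low arrays. Of 10 mature neutrophil genes 4 were listed and higher, with sums of 21550 to 24666 in CD38high and 8783 to 11521 in CD38low arrays. Nkg7 of the NK cell list (1 of 6 listed) had a signal of 463 to 1255 in CD38high against 3133 to 5805 in CD38low arrays.
Mgl2, of macrophages and dendritic cells (1 of 8), had 50.6 to 81.2 in CD38high against 298 to 475 in CD38low arrays. Mt1, on the erythroid list (1 of 8), had 262 to 564 in CD38high against 906 to 1177 in CD38low arrays. The B cell gene Cd79a (1 of 8) went the other way, with 254 to 858 in CD38high against 87.5 to 161 in CD38low arrays. Ccr7 of the T cell list (1 of 8) had 191 to 271 in CD38high against 78.9 to 124 in CD38low arrays. Selp of the platelet list (1 of 5) had 334 to 430 in CD38high against 132 to 201 in CD38low arrays. Other markers, among them those for haemoglobin and the T cell receptor complex, have no name in the files, and no marker has a value of 0 on this scale. A list with 1 named gene does not show that its cells were present. The part of any such cells in the replication gene values was not tested.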

How the data were processed

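The authors deposited log2 expression values of 8 Affymetrix GeneChip arrays for 23332 probesets, and a separate table of 498 changed probesets. Affymetrix Power Tools, RMA, PLIER and the build mm9 are named per the submitters' processing notes. Which method gave the values, and any filter, is not stated there. Each listed row equalled exactly 1 row of the value table at 5 decimals, and gene names were taken from it and updated by RefSeq accession. Per the series design, the table was made with a two-sample t-test (p below 0.001), at least 2-fold change and 10000 permutations. The permutations were not rerun.

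The 6 members and the gene lists were chosen with earlier results of these data known. Differences are CD38high minus CD38low. Background counts came from lmFit and eBayes (limma 3.58.1, R 4.3.3), unpaired, two-sided, with Benjamini-Hochberg adjustment over all probesets. The labels place both fractions of a pair in the same mouse or pool, and deviations from group means correlated at 0.35 to 0.67 within pairs and at -0.58 to 0.10 otherwise, so a paired fit was run as an alternative. Named genes are the 6 members, their 3 nearest genes each and members of fixed lists. The unpaired fit was also run on simulated arrays with independent noise and no pairs, so that run does not bear on paired data. A planned protein motif search was not run, since no protein table was used here. Nearest genes, motifs and plots used Python 3.11.15, pandas 2.3.3, numpy 2.4.6 and matplotlib 3.10.9.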

Additional observations from a re-analysis of the deposited data

Results flagged for a closer look

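Of 14 groups of 4 arrays (6 genes and the array medians, in 2 fractions), 0 held an array whose gap to the nearest other exceeded Dixon's critical share of the range.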

How the results depend on the processing

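Since the fractions do not overlap in any of the 6 genes, leaving out arrays cannot turn a sign, and the replicate block, the filter on dim probesets and the trended fit leave a difference as it is by construction. With median scaling, quantile scaling or the median of the 4 pair differences, each gene's difference stayed within 1 SD of the reported value. Leaving out arrays or pairs gave -1.62 to -1.85 for Pola1, -1.60 to -1.83 for Prim1, -1.86 to -2.18 for Pole2, -0.96 to -1.09 for Pold3, -1.39 to -1.54 for Fen1 and -1.50 to -1.81 for Rpa2. Pold3 was thus the gene that crossed the 2-fold line. In each fit 6 of 6 genes were called lower, which their selection fixes. With the replicate block the background count rose to 3929 probesets, 1626 of them higher, from 2479 and 873 without it. The methods' t-test with the 2-fold limit, without permutations, gave 351 (78 higher, 273 lower). The authors' table holds 498 (124 higher, 374 lower), so the stated rule as run here did not reproduce it. The reason for that gap was not tested. Leaving out arrays gave 540 to 2436 probesets, 113 to 953 higher and 427 to 1483 lower, with the lowest counts without mouse 1. The cause was not tested. Median and quantile scaling kept 18 and 12 of the 18 nearest named genes. With them, 3 and 2 of the 6 genes lay below the CD38high mean in mouse 2, where 1 did as deposited. Precision is limited by 4 arrays per fraction, and signal over background was not examined.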
